A study of Mus musculus with 9 samples.

Results

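Conventional dendritic cells (CDC) of the lymph node were compared with CDC of the spleen on Affymetrix mouse arrays. The comparison used 1 array of lymph node CDC and 2 arrays of spleen CDC, which are 3 of the 9 arrays in the series and were chosen by their titles. The other 6 arrays hold 2 further cell types, natural killer cells (NK) and the cells named interferon-producing killer dendritic cells (IKDC), each with 1 lymph node and 2 spleen arrays, and serve here to show which organ differences were shared. All groups came from naive BALB/c mice of 6 to 8 weeks, without treatment, and the cells were sorted fresh from the organs. The sort gates, the lymph nodes taken, the sex of the animals and any pooling of animals are not given in the sources used here. Levels are log2 normalised intensities, and differences are lymph node minus spleen on the log2 scale. A level below 5.31, the filter level, was near background. The question put to the data was which genes lay at least 1 log2, a 2-fold difference, above or below both spleen CDC arrays on the lymph node CDC array.

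Dendritic cells take up antigen and present it to T cells. Those of the spleen sample the blood and are resident in the organ, while the lymph node holds resident dendritic cells together with migratory ones that arrive from the tissues through lymph vessels. Migration follows the receptor CCR7, and cells on that route mature: they make the actin bundler fascin, costimulatory ligands and T cell-attracting chemokines. Resident cells divide into a CD8α type (cDC1), which depends on the factors BATF3 and IRF8, and a CD11b type (cDC2), of which a splenic branch marked by ESAM and CD4 depends on Notch2 signalling.

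The defining markers stood where the label puts them on all 3 CDC arrays. Flt3, the growth factor receptor of dendritic cells, was at 10.84 on the lymph node CDC array, against 10.90 and 11.25 on spleen CDC arrays 1 and 2. Zbtb46, a transcription factor of the CDC lineage, was at 8.86 in lymph node, against 8.76 and 8.63 in spleen. The summed intensity of 18 CDC identity markers was 50058 in lymph node, against 52207 and 60737 in spleen, and 1 of the 18 lay outside both spleen arrays by 1 log2. The organs thus lay close together in the markers of the lineage, and the T cell gene Cd3e was below the filter level on all 3 arrays. The lymph node CDC array had the highest median intensity of the 9 arrays, at 41.3, against 30.1 and 33.8 for spleen CDC. The spleen CDC arrays also differed from each other. Xist, which is transcribed from an inactive X chromosome, was at 12.05 on the lymph node CDC array, against 6.02 and 12.48 on spleen CDC arrays 1 and 2. Spleen arrays 1 and 2 were split by Xist in the same way in NK (6.36 and 11.96) and in IKDC (6.07 and 11.43), with 12.19 in lymph node NK and 12.13 in lymph node IKDC. Requiring a gene to lie outside both spleen arrays therefore sets it apart from a spleen array of either kind. In bulk RNA, a change in the number of cells of a type and a change in RNA per cell cannot be told apart.

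Of 10916 tested genes, 996 lay outside both spleen CDC arrays by 1 log2 (9.12%). The lymph node array was higher in 459 of them (4.2%) and lower in 537 (4.92%). The same rule took 471 genes (4.31%) in NK and 503 (4.61%) in IKDC. The spleen CDC arrays were themselves at least 1 log2 apart in 898 genes (8.23%), and the replicate SD was 0.42. Just inside the limit stood Klf14, at 7.33 in lymph node against 5.31 and 6.33 in spleen, and Grk5, at 7.57 against 6.52 and 6.57. Just outside it stood Chchd6, at 9.07 in lymph node against 8.07 and 6.66 in spleen, and Gpr34, at 8.56 against 7.09 and 7.56. On the lower side, Ier5 was just inside at 11.03 in lymph node, against 12.03 and 12.42 in spleen, and Chtf8 just outside at 7.24, against 8.24 and 8.60. Over all 18193 genes, dim ones included, 1749 (9.61%) lay outside, 876 (4.82%) higher and 873 (4.8%) lower, so the filter on dim genes left out 417 of the higher and 336 of the lower ones.

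Most of these organ differences did not pass the limit the same way in NK or IKDC, although more did so than among all tested genes. Of the 459 genes higher in lymph node CDC, 339 (73.9%) were outside both spleen arrays by 1 log2 in CDC alone, 103 (22.4%) were so in the same direction in NK or IKDC, 11 went that far in the opposite direction, and 6 were below the filter level on all NK and IKDC arrays. Of the 537 lower genes, 430 (80.1%) were outside in CDC alone, 84 (15.6%) were shared, 20 were opposite and 3 were not measurable in the other cells. A gene that passed the limit the same way in one of NK and IKDC and the opposite way in the other was counted as shared, which applied to 0 higher and 3 lower genes. The sign of the difference was more often held than the size: 331 of the 459 higher genes were also higher in lymph node NK, and 398 of the 537 lower genes were also lower there. No such count of signs was made over all tested genes. Of the 459 higher genes, 59 passed the limit the same way in NK and 66 in IKDC, where 2.13% and 2.67% of all tested genes did. Of the 537 lower genes, 57 did so in NK and 58 in IKDC, where 2.18% and 1.94% of all tested genes did. In both NK and IKDC, 21 higher and 31 lower genes passed the limit the same way. Across the 10916 genes, the organ differences of CDC correlated at r = 0.326 with those of NK and at 0.312 with those of IKDC. These values describe genes, which are not independent replicates, and the lymph node arrays share whatever their preparation shared.

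**Figure D1:**
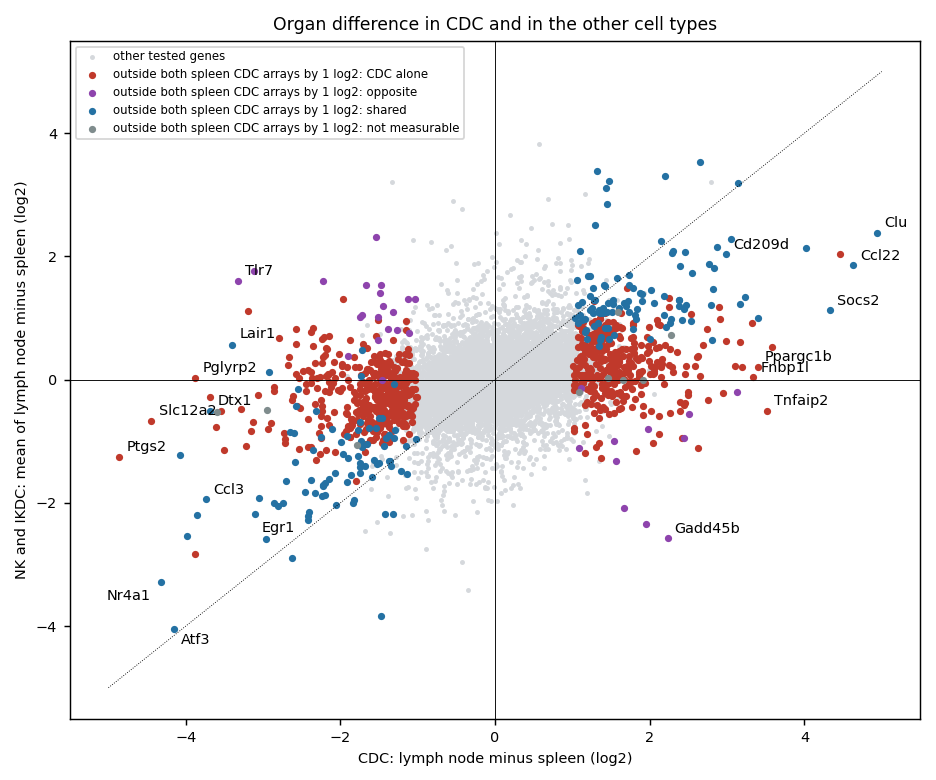
Each point is 1 of the 10916 tested genes. The horizontal axis gives the lymph node minus spleen difference in CDC and the vertical axis the mean of the same difference in NK and IKDC, both in log2, with the dotted line marking equality. Of the 996 genes outside both spleen CDC arrays by 1 log2, most lie near 0 on the vertical axis, whereas Nr4a1, Atf3 and Egr1 lie low on both axes and Gadd45b lies high on the one and low on the other.

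In the test across all genes, the spread of the single lymph node array was taken from the spleen arrays of all 3 cell types. Their replicate SD was 0.42 in CDC, 0.45 in NK and 0.66 in IKDC. With limma and Benjamini-Hochberg adjustment over the 10916 genes, 0 genes were called higher in lymph node CDC (0%) and 3 were called lower (0.0275%), namely Nr4a1, Ccl3 and Pglyrp2. At an unadjusted p under 0.05 there were 619 higher and 767 lower genes. The 3 calls did not hold without spleen CDC array 1, spleen CDC array 2, spleen NK array 1 or spleen NK array 2, each of which left 0 calls in either direction. Without either spleen IKDC array, 18 genes were called lower and 1 higher. A direct test of whether the organ difference in CDC differed from the mean of those in NK and IKDC called 0 genes in either direction (0%). In that test 259 genes had an unadjusted p under 0.05 in the higher and 433 in the lower direction, and the smallest adjusted p was 0.294. The words CDC alone therefore mean that the limit was passed only in CDC, and not that the size of the difference was shown to differ from that in the other cells. The genes described from here on were picked by the CDC values themselves or by list, so their CDC differences are given as measurements and their p-values do not support the choice.

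Among the genes higher in lymph node CDC alone, the largest gaps included genes of energy metabolism, membrane shape and the cytoskeleton. Ppargc1b, a transcriptional coactivator of mitochondrial genes, was at 7.46 in lymph node CDC, against 4.16 and 3.96 in spleen CDC. The spleen values were near background, so the difference is at least 4.44-fold (3.40 ± 0.37 SE, limma adjusted p = 0.0621). In NK the gene was at 7.19 in lymph node against 7.10 and 7.30 in spleen, and in IKDC at 7.31 against 7.03 and 6.73. Lymph node CDC thus stood at the level of the NK and IKDC arrays of either organ, and spleen CDC stood apart. Kifc2, a kinesin motor, showed the same layout, at 6.82 in lymph node CDC against 3.89 and 3.94 in spleen CDC. Klrb1b, a lectin-like receptor gene, was at 7.27 in lymph node CDC against 4.68 and 4.69 in spleen CDC, with 6.49 to 7.09 on the NK arrays and 5.71 to 6.00 on the IKDC arrays. Probe sets of such gene families can take up related transcripts, so the Klrb1b value is uncertain.

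Other genes were high in lymph node CDC and low on every other array. Fnbp1l, which links membrane curvature to actin assembly, was at 10.03 in lymph node CDC, against 7.07 and 6.31 in spleen CDC. That is a 10.1-fold difference (3.34 ± 0.50 SE, limma adjusted p = 0.095), and the 6 NK and IKDC arrays lay between 5.72 and 6.73. Zmynd15 was at 8.91 in lymph node CDC against 5.27 and 5.90 in spleen CDC, and at 5.62 or below on the 6 other arrays. Sult1a1, a sulphotransferase, was at 9.80 in lymph node CDC, against 6.87 and 7.24 in spleen CDC. In each of these the lymph node CDC array was the highest of all 9. Tnfaip2, a gene induced by tumour necrosis factor, was at 11.21 in lymph node CDC against 8.40 and 7.0 in spleen CDC, an 11.4-fold difference (limma adjusted p = 0.216) over spleen arrays that were themselves far apart. Ttr, which encodes the carrier transthyretin, was at 9.02 in lymph node CDC against 6.14 and 2.99 in spleen CDC, and its spleen arrays 1 were also above spleen arrays 2 in NK (7.02 and 2.74) and IKDC (8.32 and 4.37).

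Among the genes lower in lymph node CDC alone, the largest gap was that of Ptgs2, which encodes the prostaglandin-making enzyme COX-2. It was at 4.41 in lymph node CDC, against 9.32 and 9.23 in spleen CDC. Its level in lymph node was near background, and the difference was at least 15.6-fold (-4.86 ± 1.03 SE, limma adjusted p = 0.169). Pglyrp2, an enzyme that cleaves bacterial peptidoglycan, fell to 2.92 in lymph node CDC, against 6.83 and 6.76 in spleen CDC. This was one of the 3 calls, at least 2.81-fold (-3.87 ± 0.32 SE, limma adjusted p = 0.0493). In NK it was at 8.23 in lymph node against 8.01 and 8.03 in spleen, and in IKDC at 7.93 against 7.91 and 8.24, so the gene was above the filter level on every array but that of lymph node CDC. Itln1, which encodes the carbohydrate-binding lectin intelectin, had a like layout, at 3.58 in lymph node CDC against 6.99 and 7.54 in spleen CDC, with 6.70 to 7.63 on the other arrays. Galnt6, a glycosyltransferase, was at 3.11 in lymph node CDC against 6.38 and 6.09 in spleen CDC, with 7.42 to 8.72 on the other arrays.

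Transport and signalling genes were also among them. Slc12a2, a sodium, potassium and chloride cotransporter, was at 5.94 in lymph node CDC, against 9.65 and 11.12 in spleen CDC, a 21.8-fold difference (-4.44 ± 0.58 SE, limma adjusted p = 0.0882). Abcb1a, a drug efflux pump, was at 5.23 in lymph node CDC, against 8.69 and 8.99 in spleen CDC. It was at least 11.6-fold lower (limma adjusted p = 0.0523), and its test against NK and IKDC gave an adjusted p of 0.294, among the smallest of that test. Rgs1, which damps signals from chemokine receptors, was at 9.36 in lymph node CDC against 12.35 and 12.26 in spleen CDC. Rhob, a small GTPase, was at 7.78 in lymph node CDC against 11.06 and 10.94 in spleen CDC, and Stk17b, a kinase, at 8.53 against 11.41 and 11.95. For these 3 genes the lymph node arrays of NK and IKDC were also below both of their spleen arrays, by less than 1 log2.

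Genes of migratory, mature dendritic cells leaned to the higher side. Of 43 tested members of that list, 14 lay above both spleen CDC arrays by 1 log2 (32.6%, against 4.2% of all tested genes) and 2 below (4.65%, against 4.92%). The median difference was 0.9 in CDC, 0.222 in NK and -0.026 in IKDC, against -0.024, -0.05 and 0.008 for all genes, and no member passed the limma test. Fscn1, the actin bundler fascin, was at 12.80 in lymph node CDC, against 10.18 and 10.52 in spleen CDC, a 5.48-fold difference (2.45 ± 0.91 SE, limma adjusted p = 0.349). It was shared with the other cells, at 8.33 in lymph node NK against 5.66 and 7.09 in spleen NK, and at 9.86 in lymph node IKDC against 8.70 and 6.63 in spleen IKDC. Of its 3 measured probe sets, 2 placed the lymph node array above both spleen arrays. Ccr7, the receptor of the route into the node, was at 9.17 in lymph node CDC, against 6.25 and 8.22 in spleen CDC. It was above both but short of the limit, with a gap of 0.94 to spleen array 2, the array like it in Xist. Socs2, an inhibitor of cytokine signalling, was at 9.84 in lymph node CDC against 4.56 and 6.45 in spleen CDC (20.2-fold, limma adjusted p = 0.142), and at 8.03 in lymph node NK against 5.36 and 6.29 in spleen NK. Adcy6, an adenylate cyclase, was at 9.06 in lymph node CDC against 5.49 and 6.73 in spleen CDC, with 6.21 or less on the other arrays. Nudt17 was at 8.77 in lymph node CDC against 3.23 and 5.54 in spleen CDC, and was too dim over the 9 arrays to be tested (adjusted p = 0.25 in the limma fit of all genes).

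The chemokines differed among themselves. Of 20 tested chemokines, 6 lay above both spleen CDC arrays by 1 log2 (30%, against 4.2%) and 1 below (5%, against 4.92%), whereas in NK 1 lay above (2.13% of all tested genes did) and 4 below (2.18%), and in IKDC 1 above (2.67%) and 5 below (1.94%). Ccl22, a ligand of CCR4 that draws in T cells, was at 10.85 in lymph node CDC, against 5.43 and 7.02 in spleen CDC. This 24.8-fold difference (4.63 ± 0.72 SE, limma adjusted p = 0.0994) was accompanied by 5.61 in lymph node NK against 2.93 and 3.22 in spleen NK, a level near background. Ccl17, the other CCR4 ligand, was at 9.13 in lymph node CDC against 3.33 and 4.77 in spleen CDC, at least 14.1-fold. It was at 5.03 or below on the 6 NK and IKDC arrays, and so was left out of the test by its mean (adjusted p = 0.17 in the limma fit of all genes). Cxcl16, the ligand of CXCR6, was at 10.60 in lymph node CDC against 7.75 and 8.56 in spleen CDC, and at 7.33 or less on the other arrays. Ccl9 was at 10.73 in lymph node CDC, against 7.75 and 8.70 in spleen CDC, and in IKDC it lay the other way, at 5.86 in lymph node against 7.55 and 7.74 in spleen. Ccl3, an inflammatory chemokine, fell to 6.24 in lymph node CDC, against 10.30 and 9.66 in spleen CDC. It was called at 13.4-fold (-3.74 ± 0.32 SE, limma adjusted p = 0.0493), and it was also below both spleen arrays in NK (11.52 against 13.13 and 13.12) and in IKDC (10.44 against 12.68 and 12.74).

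Chemokine receptors and costimulatory ligands went both ways. Of 12 tested receptors 3 lay above both spleen CDC arrays by 1 log2 (25%) and 2 below (16.7%), against 4.2% and 4.92% of all tested genes. Ccr9, a gut-homing receptor also found on plasmacytoid cells, was at 10.37 in lymph node CDC against 8.46 and 6.99 in spleen CDC, and at 11.78 in lymph node IKDC against 4.48 and 6.64 in spleen IKDC. Cxcr3 was at 10.42 in lymph node CDC against 8.68 and 8.60 in spleen CDC, and at 11.28 in lymph node NK against 9.43 and 9.19 in spleen NK. Ccrl2, an atypical receptor that binds chemerin, was at 8.20 in lymph node CDC against 10.53 and 11.11 in spleen CDC, and was below both spleen arrays by more than 1 log2 in NK and IKDC too. Of 15 tested ligands of T cell costimulation and inhibition, 3 lay above (20%, against 4.2%) and 1 below (6.67%, against 4.92%). Cd40, which receives help from T cells, was at 10.73 in lymph node CDC, against 9.02 and 9.35 in spleen CDC, a 2.92-fold difference (limma adjusted p = 0.349). Pvr, the ligand of CD226 and TIGIT, was at 8.88 in lymph node CDC against 6.46 and 6.71 in spleen CDC, with 6.35 to 6.92 on the 6 NK and IKDC arrays. Tnfsf4, which encodes OX40 ligand, was at 5.81 in lymph node CDC against 3.87 and 3.56 in spleen CDC, a level close to background. Other ligands of mature cells did not reach the limit: Cd80 was at 8.18 against 8.00 and 8.01 in spleen CDC, Cd86 at 11.07 against 10.36 and 10.63, and Cd83 at 10.53 against 10.80 and 11.31. Cd274, the inhibitory ligand PD-L1, was on the lower side, at 8.36 in lymph node CDC against 9.45 and 9.77 in spleen CDC (limma adjusted p = 0.224).

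**Figure D2:**
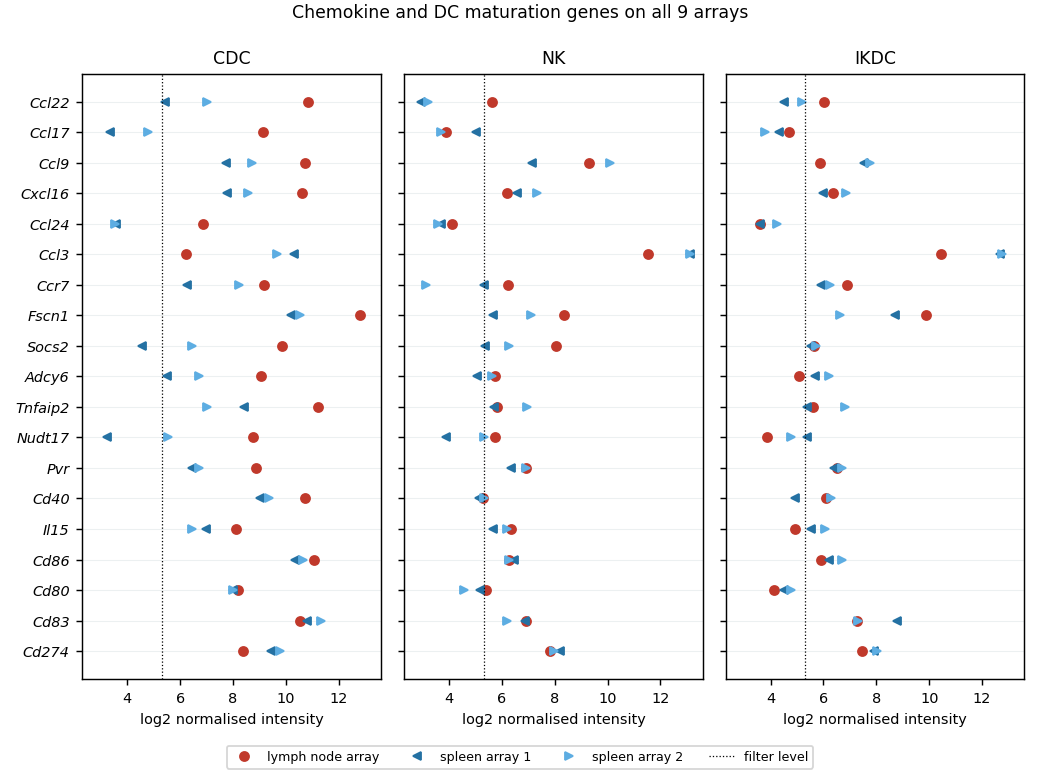
Log2 normalised intensity of chemokine and maturation genes on the 3 arrays of each cell type, with circles for lymph node arrays and triangles for spleen arrays 1 and 2. The dotted line marks the filter level of 5.31. In CDC the lymph node circle lies right of both triangles for Ccl22, Ccl17, Fscn1, Socs2 and Cd40 and left of both for Ccl3 and Cd274, while Ccl3 lies left of both in NK and IKDC as well.

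By count, the subset markers leaned toward the cDC1 side in lymph node, with exceptions on the cDC2 list that are given below. Of 23 tested cDC1 markers, 5 lay above both spleen CDC arrays by 1 log2 (21.7%, against 4.2% of all tested genes) and 1 below (4.35%, against 4.92%), with a median difference of 0.63. Of 25 tested cDC2 markers, 2 lay above (8%, against 4.2%) and 7 below (28%, against 4.92%), with a median of -0.642. Itgae, which encodes the integrin CD103, was at 11.04 in lymph node CDC, against 8.65 and 9.06 in spleen CDC, a 4.57-fold difference (2.19 ± 0.34 SE, limma adjusted p = 0.0976). The organ difference was not confined to CDC: Itgae was at 10.82 in lymph node NK against 6.70 and 6.86 in spleen NK, and at 9.05 in lymph node IKDC against 6.35 and 6.63 in spleen IKDC. Of its 2 measured probe sets, 1 placed lymph node CDC above both spleen arrays. Ly75, the antigen receptor DEC-205, was at 8.88 in lymph node CDC against 7.0 and 7.10 in spleen CDC, and was also above both spleen arrays by 1 log2 in NK. Gpr33, also on the cDC1 list, was at 7.61 in lymph node CDC against 5.14 and 5.16 in spleen CDC. Cd8a, which names the type, was at 8.65 in lymph node CDC against 7.81 and 7.43 in spleen CDC, short of the limit. The gaps of its probe sets ran from 0 to 1.40. Other factors and receptors of cDC1 lay closer together. Batf3 was at 10.18 in lymph node CDC against 10.07 and 10.03 in spleen CDC, Irf8 at 12.57 against 12.42 and 12.15, Tlr3 at 10.79 against 10.09 and 10.49, and Xcr1 at 9.59 against 7.91 and 9.22.

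On the cDC2 side, Irf4, a factor this subset depends on, was at 6.89 in lymph node CDC, against 8.78 and 9.56 in spleen CDC, a 4.86-fold difference (-2.28 ± 0.74 SE, limma adjusted p = 0.303). Ltb, which encodes lymphotoxin beta, was at 9.99 in lymph node CDC against 11.33 and 11.41 in spleen CDC, and lay the other way in NK, at 12.18 in lymph node against 11.14 and 10.38 in spleen. Cd4 was at 8.02 in lymph node CDC against 8.81 and 9.90 in spleen CDC, and Sirpa at 9.82, a gap of -0.43 to the nearer spleen CDC array. Both were below both spleen arrays and short of the limit. In IKDC, Cd4 was at 9.30 in lymph node against 4.18 and 5.09 in spleen, and its test of CDC against the other cells gave -4.55 ± 0.72 SE (limma adjusted p = 0.294). Ccr2, which the cDC2 list also holds, was on the other side, at 10.08 in lymph node CDC against 8.34 and 8.76 in spleen CDC. So were Cd209c, at 7.72 against 5.63 and 5.96, and the lectins Mgl2 and Clec10a, whose values are given below. With dim genes included, 4 members of the cDC2 list lay above by 1 log2 and 7 below.

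In the Notch pathway the limit was passed on the lower side only. Of 18 tested members, 0 lay above both spleen CDC arrays by 1 log2 and 4 below (22.2%, against 4.92%), with a median of -0.334, and no member passed the limma test. Dtx1, Esam, Notch2 and Rbpj are on the cDC2 list too. Dtx1 and Esam count among the lower members of both lists, so the lower counts of these lists are not separate observations. Dtx1, a Notch target and ubiquitin ligase, was at 7.11 in lymph node CDC, against 10.62 and 10.96 in spleen CDC. The difference was 12.8-fold (-3.68 ± 0.34 SE, limma adjusted p = 0.0515). In IKDC it was at 8.50 in lymph node against 10.22 and 9.80 in spleen, and in NK at 9.67 against 9.01 and 9.32, so that IKDC went with CDC and NK did not. Hes1, another target, was at 6.31 in lymph node CDC against 7.96 and 8.47 in spleen CDC. Esam, the adhesion molecule that marks the Notch2-dependent branch, was at 6.98 in lymph node CDC against 8.37 and 9.29 in spleen CDC. Lfng, a glycosyltransferase that modifies Notch receptors, was at 6.01 in lymph node CDC against 7.77 and 7.56 in spleen CDC. Hes1, Esam and Lfng did not pass the limit in NK or IKDC. The receptor and its nuclear partner lay close: Notch2 was at 10.48 in lymph node CDC against 10.89 and 10.98 in spleen CDC, and Rbpj at 11.08 against 10.40 and 10.74.

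C-type lectins and genes of retinoic acid handling gave some of the largest gaps. Of 20 tested lectins and phagocytic receptors, 4 lay above both spleen CDC arrays by 1 log2 (20%, against 4.2%) and 1 below (5%, against 4.92%), with a median of 0.557. Mgl2, a galactose-binding lectin, was at 9.02 in lymph node CDC against 4.33 and 5.01 in spleen CDC, at least 13.1-fold, and was too dim elsewhere to be tested (adjusted p = 0.16 in the limma fit of all genes). Its relative Clec10a was at 8.47 in lymph node CDC, against 5.14 and 6.05 in spleen CDC, and at 8.88 in lymph node IKDC, against 3.83 and 5.24 in spleen IKDC. Cd209d, of the DC-SIGN family, was at 9.15 in lymph node CDC against 5.85 and 6.48 in spleen CDC (7.93-fold, limma adjusted p = 0.095), and at 8.97 in lymph node IKDC against 4.80 and 5.20 in spleen IKDC. Clec10a and Cd209d therefore differed by organ in CDC and IKDC, and were near background on the NK arrays. The genes of both lectin families resemble each other, and their probe sets can take up transcripts of a relative.

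Of 13 tested genes of retinoic acid and TGF-β handling, 0 lay above by 1 log2 and 1 below (7.69%, against 4.92%). The members known from migratory cells were too dim to be tested. Aldh1a2, the enzyme that makes retinoic acid in dendritic cells, was at 8.47 in lymph node CDC, against 5.10 and 5.76 in spleen CDC, an 8.22-fold difference (adjusted p = 0.18 in the limma fit of all genes). It was at 4.87 or below in NK and IKDC of either organ. Itgb8, an integrin chain that activates TGF-β, was at 7.32 in lymph node CDC against 3.60 and 3.32 in spleen CDC, at least 4.05-fold. Smad7, an inhibitor of TGF-β signalling, was at 7.82 in lymph node CDC against 9.40 and 9.41 in spleen CDC. Among 9 tested genes of Langerhans cells and skin dendritic cells, 2 lay above (22.2%) and 1 below (11.1%), against 4.2% and 4.92% of all tested genes. Mfge8, a bridge to dying cells, was at 10.12 in lymph node CDC against 7.78 and 7.14 in spleen CDC, a 6.3-fold difference (2.66 ± 0.37 SE, limma adjusted p = 0.0936). Cd207, which encodes langerin, was at 11.09 in lymph node CDC against 9.53 and 10.28 in spleen CDC, a gap of 0.81, and Epcam at 7.29 against 7.05 and 7.45.

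**Figure D3:**
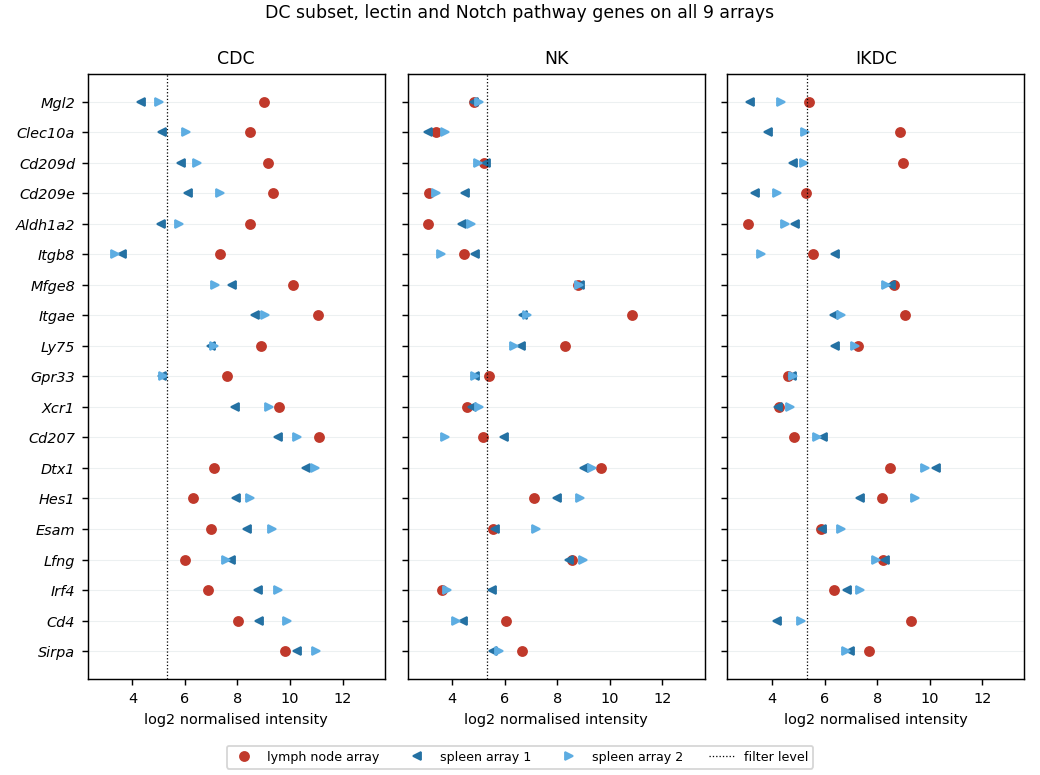
Log2 normalised intensity of lectin, subset and Notch pathway genes on the 3 arrays of each cell type, with circles for lymph node arrays and triangles for spleen arrays 1 and 2, and a dotted line at the filter level of 5.31. In CDC the circle lies right of both triangles from Mgl2 down to Cd207 and left of both from Dtx1 down to Sirpa. Itgae lies right in all 3 cell types, and Clec10a and Cd209d lie right in CDC and IKDC.

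The immediate early genes, which are transcribed within minutes of a stimulus without new protein synthesis, lay mostly on the lower side in lymph node CDC. Of 28 tested members, 19 lay below both spleen CDC arrays by 1 log2 (67.9%, against 4.92% of all tested genes) and 2 above (7.14%), and 1 was called by limma. They were lower in the other cells as well: 11 lay below both spleen arrays in NK (2.18% of all tested genes did) and 14 in IKDC (1.94% did). The median difference was -1.819 in CDC, -1.092 in NK and -1.384 in IKDC.

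Several of these genes carry the half-site of the cAMP response element near their start, which CREB and ATF factors bind. The promoters of 4 of them are given because most of the list lay on the same side and each of the 4 holds that half-site. Each sequence is the 250 bases before the transcription start from the RefSeq table of build GRCm38.p6, read 5′ to 3′ on the gene's strand, and capitals mark CGTCA on either strand. They lie at chr15:101266596-101266845 (plus strand) for Nr4a1, chr17:26508473-26508722 (minus strand) for Dusp1, chr1:191183334-191183583 (minus strand) for Atf3 and chr7:19310046-19310295 (minus strand) for Fosb.
Nr4a1: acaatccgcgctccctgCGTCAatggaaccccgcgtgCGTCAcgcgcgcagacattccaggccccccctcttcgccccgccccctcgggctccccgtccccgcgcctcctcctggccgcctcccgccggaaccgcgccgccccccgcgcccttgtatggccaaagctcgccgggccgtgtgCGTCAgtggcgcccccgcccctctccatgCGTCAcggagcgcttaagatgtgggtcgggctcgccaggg
Dusp1: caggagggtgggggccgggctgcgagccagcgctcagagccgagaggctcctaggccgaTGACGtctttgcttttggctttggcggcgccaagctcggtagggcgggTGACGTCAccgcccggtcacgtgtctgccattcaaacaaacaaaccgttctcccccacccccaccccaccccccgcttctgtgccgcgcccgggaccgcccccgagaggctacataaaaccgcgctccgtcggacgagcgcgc
Atf3: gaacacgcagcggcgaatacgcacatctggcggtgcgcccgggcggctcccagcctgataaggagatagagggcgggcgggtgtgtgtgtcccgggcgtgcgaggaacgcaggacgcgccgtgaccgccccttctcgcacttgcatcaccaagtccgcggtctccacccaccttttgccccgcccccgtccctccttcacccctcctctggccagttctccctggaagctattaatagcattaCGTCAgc
Fosb: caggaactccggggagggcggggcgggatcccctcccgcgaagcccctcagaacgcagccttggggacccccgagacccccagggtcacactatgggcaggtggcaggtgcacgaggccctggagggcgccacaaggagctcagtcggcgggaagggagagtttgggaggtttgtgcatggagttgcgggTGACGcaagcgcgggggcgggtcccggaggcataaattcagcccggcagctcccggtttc
The half-site was found 4 times in the Nr4a1 window, 3 times in that of Dusp1, where a pair overlaps in TGACGTCA, and 1 time each in those of Atf3 and Fosb. Of 32851 mouse promoter windows of the same length, 5836 (17.8%) hold at least 1 match and 45 hold 4 or more. The motif and the promoters were chosen after the values were seen, and each of the 4 was shown because it holds a match. The 4 windows therefore cannot be set against the share over all windows as a measure of enrichment. The share with a match among all members of the list was not counted. A match describes the letters only.

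Nr4a1, an orphan nuclear receptor, fell to 7.94 in lymph node CDC, against 12.06 and 12.47 in spleen CDC. It had the smallest adjusted p of the comparison, with a difference of -4.32 (± 0.28 SE, limma adjusted p = 0.0271). In NK it was at 8.81 in lymph node against 12.21 and 12.10 in spleen, and in IKDC at 8.39 against 11.59 and 11.62. No lymph node array overlapped a spleen array in any cell type, and the test of CDC against the other cells gave -1.04 ± 0.34 SE (limma adjusted p = 0.676). Atf3, a repressor induced by stress, was at 7.85 in lymph node CDC, against 12.08 and 11.92 in spleen CDC (17.7-fold, limma adjusted p = 0.0515). Its organ difference was of like size in NK, at 5.11 in lymph node against 9.56 and 9.22 in spleen, and the test of CDC against the other cells gave -0.10 ± 0.49 SE. Fosb, a subunit of AP-1, was at 7.50 in lymph node CDC against 11.32 and 11.66 in spleen CDC, and Egr1, a zinc finger factor, at 9.59 against 12.59 and 12.81. Dusp1, a phosphatase that shuts off MAP kinases, was at 10.73 in lymph node CDC against 12.85 and 12.89 in spleen CDC.

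Within the list, the layouts differed between the 3 cell types. Klf2, a factor of cell quiescence and trafficking, was at 8.55 in lymph node CDC against 11.28 and 11.63 in spleen CDC, while in NK it was at 11.51 against 11.71 and 12.58, less than 1 log2 below the nearer spleen array. Klf4 was at 9.53 in lymph node CDC against 11.38 and 11.42 in spleen CDC, and was below both spleen arrays by less than 1 log2 in NK and in IKDC. Fos was near the top of the scale on all arrays, at 12.29 in lymph node CDC against 12.78 and 13.02 in spleen CDC. The heat shock genes Hspa1a and Hspa1b did not lie below both spleen arrays: Hspa1a was at 10.77 in lymph node CDC against 11.13 and 9.79 in spleen CDC, and Hspa1b at 11.87 against 11.67 and 11.54. The 2 members above both spleen CDC arrays were Myc, at 8.63 against 7.29 and 7.58, and Gadd45b, a stress-induced growth arrest gene. Gadd45b was at 10.39 in lymph node CDC, against 7.63 and 8.68 in spleen CDC. In NK it lay the other way, at 7.56 in lymph node against 10.64 and 10.19 in spleen, and in IKDC too, at 8.01 against 10.87 and 9.75. Myc and Gadd45b were singled out after their values were seen, and the test of CDC against the other cells gave 4.81 ± 0.75 SE for Gadd45b (limma adjusted p = 0.294).

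**Figure D4:**
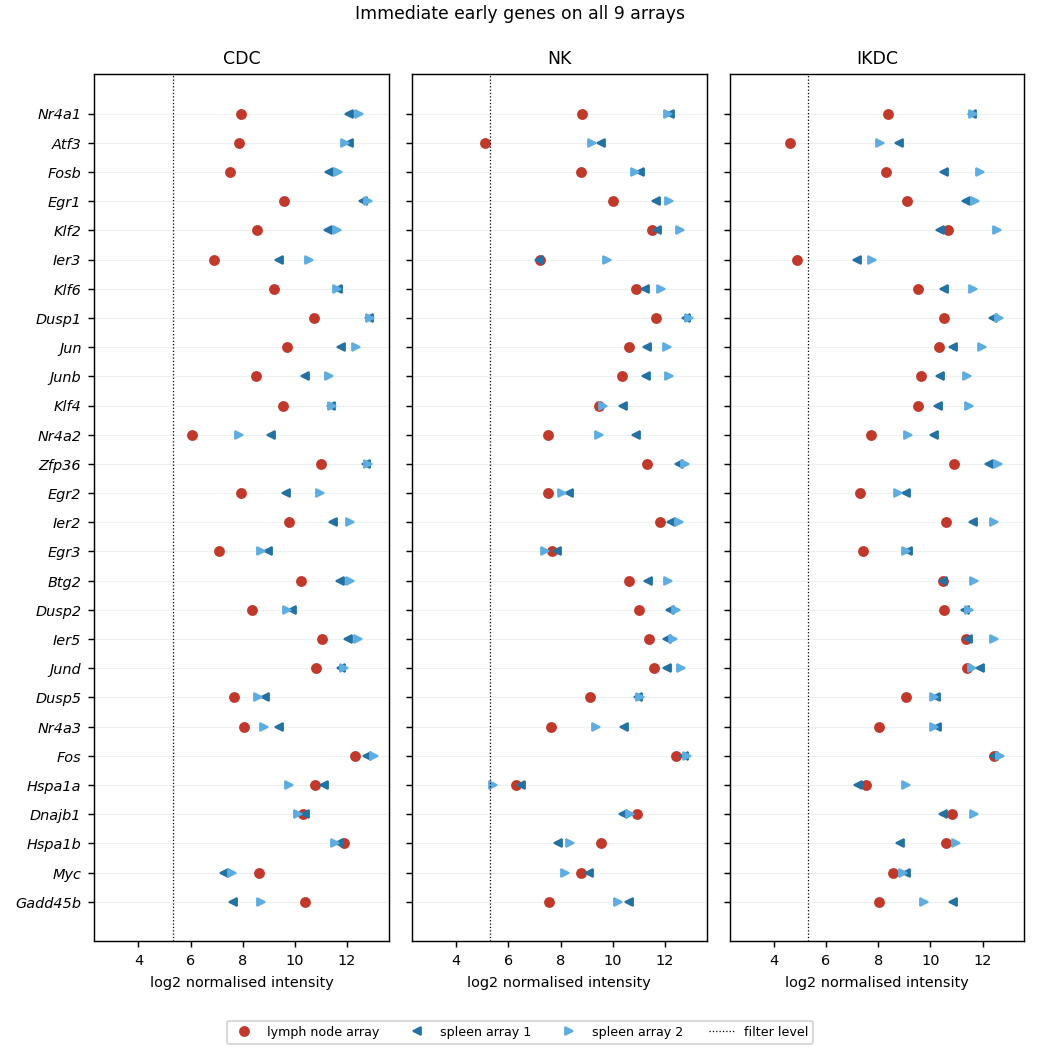
Log2 normalised intensity of the 28 immediate early genes on the 3 arrays of each cell type, ordered by their gap in CDC, with circles for lymph node arrays and triangles for spleen arrays 1 and 2. The dotted line marks the filter level of 5.31. Circles lie left of both triangles for most genes in all 3 cell types, and Gadd45b lies right of both in CDC and left of both in NK and IKDC.

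Of 25 tested members of the NF-κB list, 3 lay above both spleen CDC arrays by 1 log2 (12%, against 4.2% of all tested genes). On the lower side there were 2 (8%, against 4.92%). Nfkbiz, an inducible nuclear cofactor of NF-κB, was at 8.40 in lymph node CDC, against 11.20 and 11.32 in spleen CDC (7.25-fold, limma adjusted p = 0.0515). It was also below both spleen arrays by more than 1 log2 in NK and IKDC, and 2 of its 3 measured probe sets gave that direction in CDC. Rel, a subunit of NF-κB, was at 7.24 in lymph node CDC against 9.25 and 8.90 in spleen CDC, and was likewise lower in NK and IKDC.

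Genes of the type I interferon response leaned to the lower side in CDC. Of 28 tested members, 7 lay below both spleen CDC arrays by 1 log2 (25%, against 4.92% of all tested genes) and 1 above (3.57%, against 4.2%). The median was -0.219 in CDC, 0.136 in NK and 0.23 in IKDC, and 0 members lay below by 1 log2 in either NK or IKDC. Ifit3, an interferon-induced antiviral gene, was at 5.65 in lymph node CDC against 7.74 and 8.00 in spleen CDC, a 4.68-fold difference (limma adjusted p = 0.178). Rtp4 was at 7.15 in lymph node CDC against 9.63 and 8.85 in spleen CDC, and Oas3, of the oligoadenylate synthetases, at 4.56 against 6.94 and 6.95. Mx1, an antiviral GTPase, stood on the other side, at 10.23 in lymph node CDC against 8.13 and 7.90 in spleen CDC (4.64-fold, limma adjusted p = 0.0936), and at 7.89 in lymph node IKDC against 6.56 and 6.58 in spleen IKDC. The list thus held genes on both sides, with no call.

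Antigen presentation by class II lay close between the organs. Of 19 tested genes of that pathway, 0 lay above both spleen CDC arrays by 1 log2 and 1 below (5.26%). H2-Aa, a class II chain, was at 11.99 in lymph node CDC against 12.57 and 12.84 in spleen CDC, and Cd74, the invariant chain, at 12.92 against 12.82 and 13.09. Another H2-Aa probe set lay the other way, at 11.08 in lymph node CDC against 9.89 and 9.48 in spleen CDC. Ciita, the transactivator of the pathway, was at 8.60 in lymph node CDC against 9.53 and 9.86 in spleen CDC, a gap of -0.93. Class II genes are alike in sequence, and their probe sets may read more than 1 of them. Of 18 tested Toll-like receptors and adaptors, 0 lay above and 1 below (5.56%, against 4.92%). That 1 was Tlr7, a sensor of single-stranded RNA, at 4.15 in lymph node CDC, against 6.96 and 7.99 in spleen CDC, at least 4.48-fold (-3.32 ± 0.57 SE, limma adjusted p = 0.121). In IKDC it lay the other way, at 7.85 in lymph node against 4.93 and 5.42 in spleen, and in NK it was near background on all 3 arrays.

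Lair1, an inhibitory receptor for collagen that is also on the plasmacytoid list, had a similar layout. It was at 5.27 in lymph node CDC against 8.85 and 8.49 in spleen CDC (at least 10.3-fold, limma adjusted p = 0.0679), and in IKDC at 10.07 in lymph node against 7.44 and 7.99 in spleen. In NK it was lower in lymph node, at 6.91 against 8.32 and 7.96. The test of CDC against the other cells gave -3.96 ± 0.47 SE for Lair1 and -4.93 ± 0.69 SE for Tlr7, each with a limma adjusted p of 0.294. Of 37 tested proliferation genes, 0 lay above both spleen CDC arrays and 1 below (2.7%, against 4.92% of all tested genes). The gene below was the replication clamp Pcna, at 10.71 in lymph node CDC against 12.01 and 11.81 in spleen CDC. The mean level of the proliferation list was 8.232 in lymph node CDC, between 9.235 and 7.843 on spleen CDC arrays 1 and 2. With spleen arrays that far apart, few members could pass the limit, so the count does not show that the organs were alike. The median was -0.244 in CDC, -0.737 in NK and -1.839 in IKDC, where 9 lay below (1.94% of all tested genes did).

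**Figure D5:**
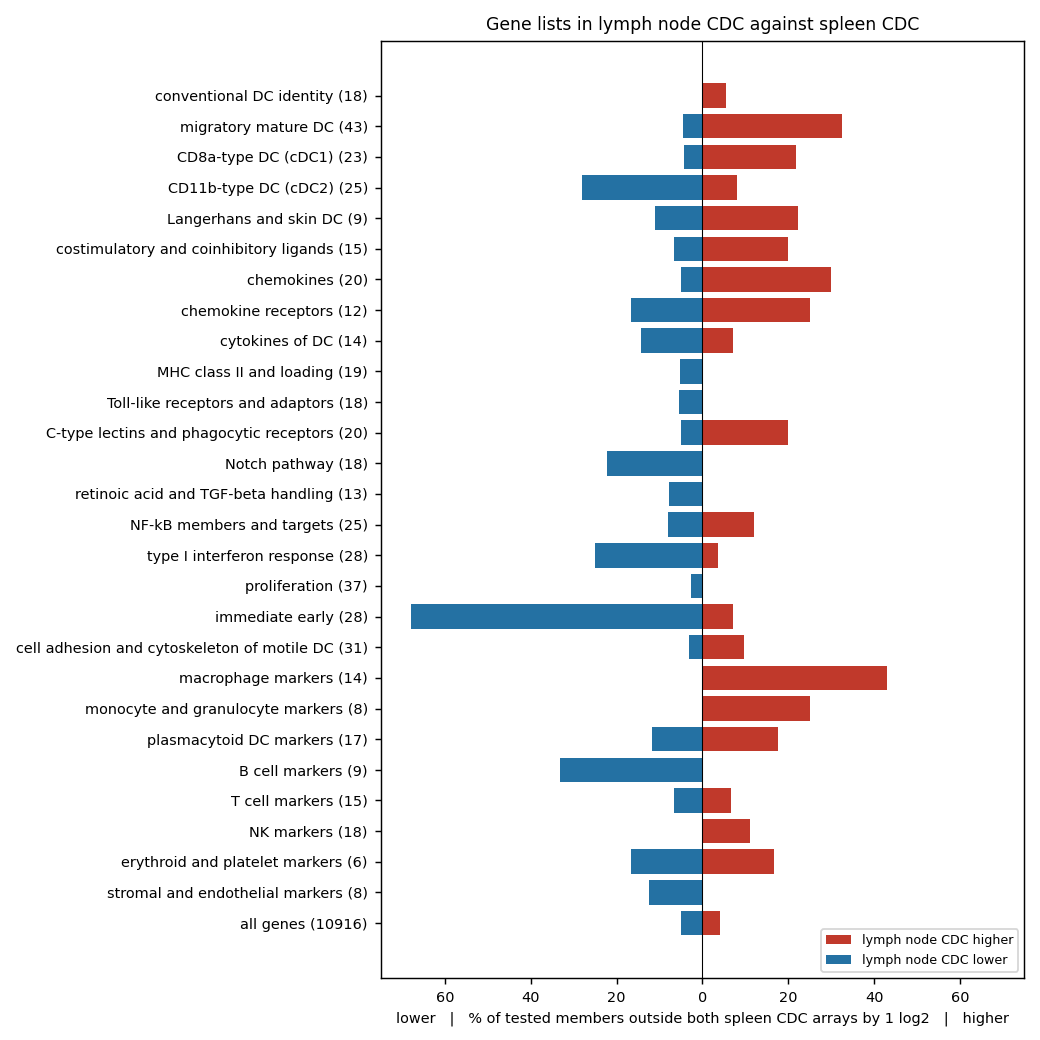
Percentage of the tested members of each gene list that lay outside both spleen CDC arrays by 1 log2, with higher members to the right and lower ones to the left and the number tested in parentheses. The bottom bar gives all 10916 tested genes, at 4.2% higher and 4.92% lower. Immediate early genes reach 67.9% on the lower side, and macrophage markers (42.9%) and migratory genes (32.6%) the most on the higher side.

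Markers of other cells also differed by organ, and their part in the results above was not tested. Of 14 tested macrophage markers, 6 lay above both spleen CDC arrays by 1 log2 (42.9%, against 4.2%) and 0 below. C1qb, a complement chain, was at 8.04 in lymph node CDC against 5.77 and 6.00 in spleen CDC, Lyz2 at 12.46 against 10.76 and 10.75, and Vcam1 at 8.79 against 7.24 and 7.77. The summed intensity of 21 macrophage markers was 23476 in lymph node CDC, against 12955 and 14741 in spleen CDC, and 3 of the 21, Cd5l, Marco and Mertk, were below the filter level on all 3 CDC arrays. Adgre1, which encodes F4/80, was at 9.87 in lymph node CDC against 10.17 and 10.85 in spleen CDC, below both but short of the limit. By the sign of the difference, 10 tested macrophage markers were higher and 4 lower in lymph node CDC. Of 8 tested monocyte and granulocyte markers, 2 lay above (25%, against 4.2%) and 0 below. By sign, 4 of them were higher and 4 lower in lymph node CDC, with a median of -0.023. The summed intensity of 17 such markers, untested ones included, was 2018 in lymph node CDC, against 1028 and 1352 in spleen CDC. Most of that excess came from Ccr2, at 10.08 in lymph node CDC against 8.34 and 8.76 in spleen CDC, which the cDC2 list also holds. No sum was made without it.

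Of 17 tested plasmacytoid markers, 3 lay above both spleen CDC arrays (17.6%) and 2 below (11.8%), against 4.2% and 4.92% of all tested genes. The sum over 19 such markers was 4833 in lymph node CDC against 3731 and 3542 in spleen CDC. Most of that excess came from Ccr9, at 10.37 in lymph node CDC against 8.46 and 6.99 in spleen CDC, and no sum was made without it. Siglech, a defining marker, was at 6.44 in lymph node CDC against 5.64 and 5.85 in spleen CDC. Of 9 tested B cell markers, 0 lay above and 3 below (33.3%, against 4.92%), namely Blk, Cd22 and Cd72, and the sum over 17 B cell markers was 2841 in lymph node CDC against 5027 and 5653 in spleen CDC. Cd22 was at 8.55 in lymph node CDC against 11.02 and 11.14 in spleen CDC, while Ms4a1, a defining marker, was at 6.20 against 7.12 and 7.68, and Cd79a was below the filter level on all 3 arrays. Of 6 tested erythroid and platelet markers, 1 lay above and 1 below, and the sum over 13 such markers was 1024 in lymph node CDC against 2462 and 2841 in spleen CDC. Most of both spleen sums came from Tfrc, the transferrin receptor, at 8.74 in lymph node CDC against 10.89 and 11.09 in spleen CDC. The difference in the sum thus mainly follows that gene, and no sum was made without it. Hba-a1, a globin gene, was at 4.82 in lymph node CDC against 5.24 and 5.36 in spleen CDC. Among 8 tested stromal and endothelial markers, 0 lay above and 1 below (12.5%), with a sum over 20 markers of 893 in lymph node CDC against 715 and 921 in spleen CDC. Of 15 tested T cell markers 1 lay above and 1 below (6.67% each), and the sum over 19 markers was 2198 in lymph node CDC against 1877 and 2410 in spleen CDC. Of 18 tested NK markers 2 lay above (11.1%, against 4.2%) and 0 below. The sum over 20 NK markers was 3186 in lymph node CDC, against 3165 and 1596 in spleen CDC, and between 46391 and 77736 on the NK and IKDC arrays.

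A last set of genes was shared with NK or IKDC and had large gaps. Clu, the secreted chaperone clusterin, was at 11.66 in lymph node CDC against 7.47 and 5.97 in spleen CDC (30.8-fold, limma adjusted p = 0.306), and at 10.32 in lymph node NK against 7.57 and 6.76 in spleen NK. Srr, which encodes serine racemase, was at 9.90 in lymph node CDC against 5.95 and 5.81 in spleen CDC, with 2 of its 5 measured probe sets above both spleen arrays. Shh, the secreted signal sonic hedgehog, was at 8.76 in lymph node CDC against 5.74 and 5.33 in spleen CDC, and at 6.91 in lymph node NK against 5.63 and 5.50 in spleen NK. In all 3 genes the lymph node CDC array was the highest of the 9. On the lower side, Gp2, a glycoprotein that binds bacterial fimbriae on M cells, was at 4.99 in lymph node CDC against 8.79 and 9.34 in spleen CDC, at least 13.5-fold (limma adjusted p = 0.0621). Sash1, a scaffold protein, was at 7.26 in lymph node CDC against 11.24 and 10.98 in spleen CDC, and below both spleen arrays by more than 1 log2 in NK. Of the named genes that had passed the limit in CDC, 41 had more than 1 measured probe set, and 34 of these had all of them outside both spleen CDC arrays in the same direction.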

How the data were processed

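Affymetrix arrays measured 3 sorted cell types from 2 mouse organs. The authors deposited a linear intensity for each probe set, and from the values they had scaled every array to the same trimmed mean, 150.001. The sources used here do not name the software. Per the labels' protocols, 6 µg of total RNA went into the biotin labelling.

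From the 45101 probe sets, 64 controls were dropped. Of the others, 34945 carried 1 gene symbol in the platform annotation and were used, 932 carried several and 9160 none. Symbols were set against the RefSeq table of GRCm38.p6 (34742 matched, 1 updated). The values plus 6.49, their 20th percentile, were taken to log2 and quantile normalised, and each gene was given its probe set with the highest mean. Genes whose mean reached the 40th percentile, 10916 in all, were tested.

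All 9 arrays entered limma 3.58.1 (R 4.3.3; lmFit, eBayes with trend) as 6 groups, with 3 residual and 3.44 prior degrees of freedom, all residual ones from spleen pairs. Two-sided p-values were adjusted by Benjamini-Hochberg (threshold 0.05) and measure only the spread between these samples, which may be technical. The number of arrays limits the precision. The fit was tested on simulated data. A fold is given as at least that much where the lower group's mean was below the filter level.

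Named genes were the 12 largest gaps each way outside shared ones, the 6 largest shared each way, up to 6 members of each of 27 lists (618 genes), all called genes and 30 fixed genes, of which 28 have a usable probe set. Members, lists and rule were chosen with earlier results of these data known. Gadd45b, Myc, Dusp1, Fos, Hspa1a, Hspa1b, Notch2, Rbpj and the named markers of other cell types fall outside that rule and were chosen after their values were seen. Alternatives changed the normalisation, offset, filter, probe set choice, spread, limit and arrays. Codings of the replicate number were added after the data were seen. Python 3.11.15, pandas 2.3.3 and matplotlib 3.10.9 made the counts and plots.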

Additional observations from a re-analysis of the deposited data

Results flagged for a closer look

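In 7 named genes the lymph node array lay at least 1 log2 outside both spleen arrays in CDC and that far the other way in NK or IKDC. The test of the organ difference in CDC against the mean of those in NK and IKDC gave 4.81 for Gadd45b (higher in lymph node CDC, lower in lymph node NK and IKDC) and 3.06 for Ccl9 (higher in lymph node CDC, lower in lymph node IKDC). It gave 3.32 for Clmn, which encodes the membrane protein calmin and was higher in lymph node CDC and lower in lymph node NK. It gave -4.93 for Tlr7 (lower in lymph node CDC, higher in lymph node IKDC) and -2.20 for Ltb (lower in lymph node CDC, higher in lymph node NK). The other 2 went the same way in the remaining cell type. Lair1, at -3.96, was lower in lymph node CDC and NK and higher in lymph node IKDC. Ctla4, an inhibitory T cell receptor gene, at -2.20, was lower in lymph node CDC and IKDC and higher in lymph node NK. The limma adjusted p was 0.294 for Gadd45b, Clmn, Tlr7 and Lair1, 0.527 for Ltb, 0.676 for Ctla4 and 0.797 for Ccl9, so none of the 7 passed the test.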

How the results depend on the processing

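The test of CDC against the other cells called 0 genes under every alternative run. In the organ test of CDC, 0 genes were called higher and 3 lower, as against 0 and 5 after a shift to the same 75th percentile, 0 and 1 with an offset of 16, 1 and 12 with an offset of 1, 0 and 0 without a filter on dim genes, 0 and 10 with a filter at the 60th percentile, 1 and 7 with the median of probe sets and 0 and 1 with every probe set. It was 0 and 0 without the trend, 0 and 1 with robust spread, 0 and 0 with a minimum of 1 log2, and 87 and 120 with the 3 CDC arrays only. Leaving out 1 spleen array at a time gave 0 to 1 higher and 0 to 18 lower. The replicate block gave 60 higher and 113 lower. Added after the data were seen, the block gave 47 and 75 with lymph node arrays counted with spleen arrays 1, and 107 and 163 with spleen arrays 2. The labels give the lymph node arrays no number, and deviations of same-numbered spleen arrays correlated at 0.412 (CDC and NK), 0.529 (CDC and IKDC) and 0.485 (NK and IKDC), which is a hint from the data and not the design. Nr4a1 was called in 13 of 20 alternatives (adjusted p from 0.00212 to 0.207), Pglyrp2 in 10 (0.00852 to 0.401) and Ccl3 in 9 (0.00561 to 0.238). Genes outside both spleen CDC arrays numbered 459 higher and 537 lower, as against 525 and 450 without quantile normalisation, 876 and 873 without the filter, 221 and 336 with the filter at the 60th percentile, 961 and 1181 with every probe set, 68 and 91 at a limit of 2 log2 and 1475 and 1650 at 0.5 log2. Against 1 spleen array they were 705 to 1137 higher and 919 to 1047 lower. The direction turned for Cd74 (0.0015 without quantile normalisation, 0.0935 without spleen CDC array 2, 0.62 with the block counting lymph node arrays as 2), Batf3 (-0.0275 after the 75th percentile shift, -0.17 with the block as 1), Zbtb46 (-0.518 with the median of probe sets, -0.002 with the block as 2), Epcam (-0.16 to 0.2374 with 1 spleen array left out, -0.0954 with the block as 2) and H2-Aa (0.137 with the block as 2). None of these 5 was called, and the cause was not tested. Each lymph node group is 1 array, and levels below 5.31 are near background.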

Other observations

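Further lists held few members outside the limit. Of 14 tested cytokines of dendritic cells, 1 lay above both spleen CDC arrays by 1 log2 (7.14%, against 4.2% of all tested genes). On the lower side there were 2 (14.3%, against 4.92%). Il15, a growth factor of NK and memory T cells, was at 8.13 in lymph node CDC, against 6.96 and 6.43 in spleen CDC (limma adjusted p = 0.305), and at 6.35 or less on the NK and IKDC arrays. Il1b, which encodes the inflammatory cytokine interleukin-1β, was at 9.87 in lymph node CDC, against 11.10 and 11.67 in spleen CDC (limma adjusted p = 0.224). Il12b, a chain of interleukins 12 and 23, was too dim to be tested, at 6.85 in lymph node CDC against 5.72 and 7.03 in spleen CDC. Of 31 tested adhesion and cytoskeleton genes, 3 lay above (9.68%, against 4.2%) and 1 below (3.23%, against 4.92%). The last was the actin regulator Coro1c, at 7.17 in lymph node CDC against 8.40 and 8.54 in spleen CDC.

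Other named genes lay on either side in lymph node CDC. Tfrc, the transferrin receptor, was at 8.74 in lymph node CDC against 10.89 and 11.09 in spleen CDC, with its NK and IKDC arrays between 8.42 and 9.92. Ctnnd2, a catenin known from neurons, was at 6.83 in lymph node CDC against 9.24 and 9.39 in spleen CDC, and Ncald, a calcium sensor, at 5.43 against 7.74 and 7.61 (limma adjusted p = 0.095). Il7r, the receptor of interleukin-7, was at 9.86 in lymph node CDC against 7.60 and 7.82 in spleen CDC, and it was also above both spleen arrays by 1 log2 in lymph node NK and IKDC. Glycam1, a secreted ligand of high endothelial venules, was at 5.08 in lymph node CDC against 2.85 and 3.14 in spleen CDC, and at 11.30 in lymph node NK and 8.08 in lymph node IKDC, against 3.29 or less on the other spleen arrays.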
